A study of Mus musculus with 12 samples.

Results

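The 5 NF-kB subunit genes (Nfkb1, Nfkb2, Rel, Rela and Relb) and 4 genes of inhibitors of the pathway (Nfkbia, Nfkbie, Nfkbiz and Tnfaip3) were described through DNA methylation in dividing B cells. Members were all CpGs whose gene symbol in the deposited table was one of these 9 names, which gave 399 CpGs of 760348 in all. Nfkb1 held 113 of them, Rela 80, Rel 44, Nfkbia 39, Nfkbiz 35, Tnfaip3 35, Relb 31, Nfkbie 14 and Nfkb2 8. Some CpGs with a gene's symbol lie far from it, and distances are therefore given for each result.

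The study followed splenic B cells (B220+ CD43-, from naive donors) that were labelled with a division-tracking dye, transferred into uMT hosts, which have no mature B cells of their own, and challenged with LPS. At day 3 the transferred cells were sorted by division into 6 fractions, Div0, Div1, Div3, Div5, Div8neg and Div8pos, from each of 2 hosts (196 and 197), which gave 12 samples. The division 8 class had divided at least 8 times and was split by CD138, a surface marker of plasma cells, into Div8neg (CD138-) and Div8pos (CD138+). The labels of all samples give female, spleen, 8 weeks and strain B6.SJL-Ptprca Pepcb/BoyJ, whereas the design text names C57/BL6J donors, and every fraction, Div0 included, came from LPS-treated hosts. Fractions from 1 host are parts of the same transfer, and there was no untreated sample.

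NF-kB proteins are dimers of Rel family subunits that inhibitors of the IkB family hold inactive in resting cells. LPS acts through Toll-like receptor signalling on the IkB kinases, the inhibitors are degraded, and the freed dimers enter the nucleus and switch on survival and activation genes as well as the genes of their own inhibitors. In B cells this pathway drives proliferation after LPS. Methylation of a CpG is the share of sequenced molecules with a methylated cytosine at that position, given here as a percentage.

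Read totals over all CpGs ranged from 17969105 to 56775157 per sample, with a median of 20 to 66 reads per CpG and of 21 to 70 reads at the 399 CpGs, and every CpG had at least 10 reads in every sample. Reads were counted after PCR and are not independent molecules, so depth limits only the counting error. CpGs within 1 kb of the start sites of the B cell genes Cd79a, Cd79b and Cd22 were at 7.96%, 3.85% and 26.9% at Div0. Those of the T cell genes Cd3e, Cd4 and Lck were at 97.2%, 77.8% and 34.1%, and those of the myeloid gene Itgam at 97.6%.

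Promoters are shown for Nfkbia and Tnfaip3 because both inhibitor genes are textbook NF-kB targets. Their start sites also stayed unmethylated in every fraction, while other CpGs with the same gene symbols lost methylation. For Tnfaip3 5 of the 6 lower CpGs at Div8pos were intergenic. The sequences are RefSeq promoters of build GRCm38.p6, which held 6 of the 9 genes, from 250 bases before to 30 bases after the start site, and capitals mark matches to the NF-kB motif GGAAANTCC on either strand. Nfkbia lies on the minus strand at chr12:55492618-55492897 and Tnfaip3 on the minus strand at chr10:19015381-19015660.
Nfkbia: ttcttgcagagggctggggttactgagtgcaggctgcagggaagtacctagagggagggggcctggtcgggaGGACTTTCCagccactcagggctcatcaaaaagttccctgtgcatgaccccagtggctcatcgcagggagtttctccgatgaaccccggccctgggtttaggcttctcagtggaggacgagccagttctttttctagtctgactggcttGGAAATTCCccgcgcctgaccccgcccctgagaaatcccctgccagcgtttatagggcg
Tnfaip3: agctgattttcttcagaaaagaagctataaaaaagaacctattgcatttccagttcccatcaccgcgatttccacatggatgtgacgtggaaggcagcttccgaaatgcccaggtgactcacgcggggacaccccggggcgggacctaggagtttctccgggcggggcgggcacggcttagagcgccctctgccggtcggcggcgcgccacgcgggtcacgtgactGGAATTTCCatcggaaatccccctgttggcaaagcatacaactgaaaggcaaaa

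The Nfkbia promoter held GGAAANTCC 178 and 29 bases before the start site, and the printed Tnfaip3 promoter held it 24 bases before. Another RefSeq promoter of Tnfaip3 (chr10:19011914-19012213) held 0 matches and 6 CG pairs, and 1 of 9 measured CpGs fell on a CG there. Of the other genes, overlapping Nfkb2 promoters at chr19:46305445-46305744 and chr19:46305680-46305979 held 1 match each. A further Nfkb2 promoter and those of Nfkbie, Rel and Rela held 0. Of all 32851 RefSeq promoters of 300 bases, 1.25% held this motif, and 50.8% held the looser general kB consensus, which overlaps it in part. A match describes letters only and is not a measured binding site. The 300-base windows contained 15 CG pairs for Nfkbia and 22 for the printed Tnfaip3 promoter, against a median of 7 in all promoters. All 9 measured Tnfaip3 CpGs just upstream of the start site and both such Nfkbia CpGs fell on a CG of these sequences after a shift of 2 bases. The shift was picked, among several tried, as the one with the most matches, so the match is partly built in. Picked in the same way, the best shift placed 4 of 4 such CpGs of Rel on a CG, but 3 of 10 of Rela and 0 of 1 of Nfkbie.

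In cells that had divided at least 8 times and carried CD138, 45 of the 399 CpGs were lower than in undivided cells and 0 were higher. A CpG was called by a quasi-binomial test of its read counts at a Benjamini-Hochberg adjusted p under 0.05 over all CpGs and a difference of at least 20 percentage points. Across the genome 5.93% of CpGs were lower and 0.0168% were higher in this comparison. At an unadjusted p under 0.05, 3 of the 399 were higher and 133 lower by the same test, a limit for which the share over all CpGs was not counted. Limma on the percentages also called 0 higher. Only methylated CpGs can fall, and of the 219 member CpGs at 20% or more in Div0 20.5% were lower, against 9.66% of all such CpGs.

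The 45 CpGs carried the symbols of the 4 inhibitor genes and of Nfkb1. Nfkb1 had 12 of 113 lower, Nfkbia 10 of 39, Nfkbiz 10 of 35, Nfkbie 7 of 14 and Tnfaip3 6 of 35, while Nfkb2, Rel, Rela and Relb had 0. Each of the 45 was lower in both hosts with no overlap between the 2 fractions, and 40 of them were at 80% or more in Div0. The calls used these same values, so the lack of overlap is no separate support, and its share among all called CpGs was not counted. The median difference was -37.1 points, from -94.2 to -20.0, and 10 of the 45 ended under 20%. All 45 were more than 500 bp from a start site, and 38 were more than 1 kb away. With host as a block, which the shared host animal calls for, 8 of the 45 passed: the 5 CpGs of an Nfkbia exon, 2 of Tnfaip3 and 1 of Nfkbiz, and 0 of Nfkb1 and Nfkbie. This count, and those with the block in the comparisons that follow, are of its planned version. They can change with how the degrees of freedom of the block are counted, as given in the last section. With the dispersion of each CpG taken alone 0 passed. The count fell to 13 without the Div0 sample of host 197, to 20 without the Div8pos sample of host 197 and to 19 when 20 reads were required in every sample, a limit that only 157 of the 399 CpGs met.

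**Figure D1:**
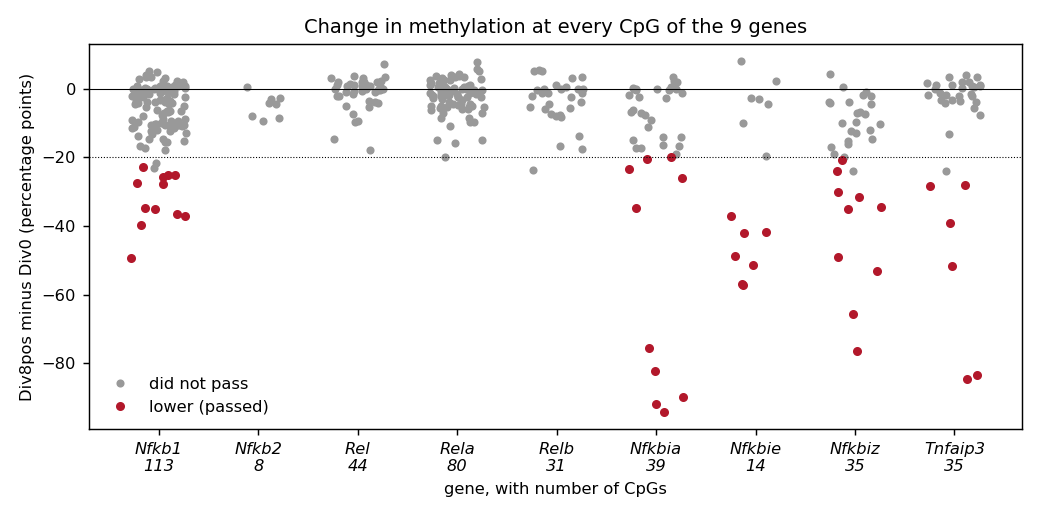
Difference in methylation between Div8pos and Div0 in percentage points (vertical axis) at each of the 399 CpGs, 1 point per CpG, grouped by gene with the number of CpGs below each name. Red points passed the test and the 20-point limit (dotted line). They occur in Nfkb1 and the 4 inhibitor genes, and the lowest reach -94.2 points in Nfkbia.

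Among annotation classes of the deposited table, exons had 9 of 45 member CpGs lower, against 2.81% of all exon CpGs. Introns had 16 of 119 against 7.27%, intergenic positions 16 of 103 against 8.39%, promoters 3 of 80 against 1.82%, 3′ UTRs 1 of 12 against 7.39% and 5′ UTRs 0 of 40 against 0.470%. Promoter here means mostly positions before a start site: across the whole data 97885 of 102696 CpGs up to 2500 bp upstream carry a promoter annotation, but only 26922 of 127899 up to 500 bp downstream, and UTR, exon and intron were given precedence. The 5′ UTR CpGs averaged 4.44% at Div0 and 4.19% at Div8pos, and the promoter CpGs 6.51% and 5.13%, so these classes had little methylation to lose. All 9 lower exon CpGs lay in Nfkbia and Nfkbie, whose 10 exon CpGs averaged 93.7% at Div0 and 30.1% at Div8pos, while the 35 exon CpGs of the other genes averaged 76.7% and 72.0%.

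Each gene was also summarised as the mean percentage over its CpGs and tested with limma over 16816 genes, with a call at adjusted p under 0.05 and at least 10 points. In Div8pos against Div0, 4 of the 9 genes were lower and 0 higher, and 16.0% of all genes tested were lower and 0% higher. The median difference of the 9 genes was -8.28 points, beside -5.80 over all genes. The 4 were the inhibitor genes. Without the 10-point limit 8 of the 9 were lower at adjusted p under 0.05, as were 14081 of all 16816 genes.

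None of the 5 subunit genes reached the 10-point limit, although 4 of them were lower at adjusted p under 0.05. Nfkb1 encodes a subunit made by processing of a precursor that itself acts as an inhibitor. Its mean over 113 CpGs was 63.5% and 63.8% at Div0 in hosts 196 and 197, 63.6% and 63.4% at Div1, 63.6% and 62.6% at Div3, 63.5% and 63.1% at Div5, 60.1% and 58.9% at Div8neg, and 55.7% and 55.1% at Div8pos. Both late fractions lay below all 8 earlier samples, and Div8pos below Div8neg, yet the difference from Div0 of -8.28 points (SE 0.626, adjusted p = 4.53e-06 by limma) stayed inside the 10-point limit.

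The 12 lower CpGs of Nfkb1 were scattered over introns (9) and intergenic positions (3), with no run of 3 within 500 bp of each other. The deepest was an intergenic CpG at chr3:135382618 (build mm9), 28106 bp upstream of the nearest start site, which fell from 96.9% ± 4.42 (SD, n = 2) at Div0 to 47.6% ± 1.21 at Div8pos (adjusted p = 0.000362 by the quasi-binomial test with Benjamini-Hochberg adjustment). Its neighbour at chr3:135382575 was 100% in both hosts at Div0, 90.5% and 93.2% at Div1, 97.1% and 94.1% at Div3, 92.7% and 86.1% at Div5, 72.7% and 75.8% at Div8neg, and 64.4% and 62.4% at Div8pos. It was the only Nfkb1 CpG called lower already in Div8neg (adjusted p = 0.00197, same test), and the 2 hosts stayed close to each other in each fraction.

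Nfkb2, the precursor subunit of the non-canonical branch, was measured at 8 exon and intron CpGs, none within 1 kb of a start site. They averaged 97.7% and 98.8% at Div0 and 93.5% and 93.2% at Div8pos, a difference of -4.92 points (SE 0.670, adjusted p = 0.000111 by limma) below the size limit. Relb, the partner of Nfkb2 in that branch, averaged 45.8% and 43.9% at Div0 and 41.4% and 41.0% at Div8pos, with a difference of -3.64 points (SE 0.751, adjusted p = 0.00146, limma). Both genes were lower in Div8pos than in Div0 in each host, by less than the limit of 10 points.

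Rela, the main activating subunit in most cells, averaged 21.9% and 21.2% at Div0 and 19.8% and 18.7% at Div8pos, a difference of -2.29 points (SE 0.681, adjusted p = 0.0111, limma). Rel, the activating subunit most prominent in lymphocytes, averaged 12.3% and 14.0% at Div0 and 12.5% and 11.4% at Div8pos, with overlapping fractions and a difference of -1.16 points (SE 0.818, adjusted p = 0.210, limma). Most CpGs of these 2 genes lie at their start sites. Within 500 bp of a start site, all 37 Rel CpGs were under 20% in every fraction and averaged 1.51% ± 0.178 at Div0 and 1.59% ± 0.550 at Div8pos. The 47 Rela CpGs there averaged 2.82% ± 1.19 and 2.27% ± 1.12.

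The same window was unmethylated in most inhibitor genes. The 16 Tnfaip3 CpGs within 500 bp averaged 1.91% ± 0.565 at Div0 and 1.91% ± 0.539 at Div8pos, and the 7 Nfkbia CpGs, all upstream and 2 of them inside the promoter printed above, averaged 1.77% ± 0.643 and 0.710% ± 0.683. The 5 Nfkbie CpGs averaged 3.42% ± 4.15 and 3.41% ± 0.0693, and the 13 Relb CpGs 5.10% ± 2.23 and 5.34% ± 2.34. Of the 24 Nfkb1 CpGs in this window 18 were under 20% in every fraction. Nfkbiz differed at the CpGs deep enough for the test, with 6 near a start site that averaged 95.6% ± 2.46 at Div0 and 87.7% ± 2.47 at Div8pos. No tested CpG in any of these windows was called lower in any comparison. Nfkbiz CpGs with fewer reads, pooled over the hosts and not tested, were almost all unmethylated in this window. Those within 500 bp of a start site were under 20% in every fraction, with a single exception. For example, one 83 bp upstream of a start site (chr16:55838838) was at 0% at Div0 and at Div8pos. Another 140 bp downstream (chr16:55822110) was at 0% and 2.27%. The exception, 271 bp upstream (chr16:55818900), was at 100% and 84.2%.

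Nfkbia encodes IkB alpha, the inhibitor that NF-kB itself induces and that ends the response. Its mean over 39 CpGs was 69.3% and 69.1% at Div0, 67.1% and 66.4% at Div1, 65.0% and 65.1% at Div3, 61.8% and 61.3% at Div5, 56.8% and 56.1% at Div8neg, and 50.9% and 49.8% at Div8pos. The 2 hosts never overlapped a neighbouring fraction, so the level stepped down at each of the 5 steps in both hosts. Div8pos differed from Div0 by -18.9 points (SE 0.605, adjusted p = 3.66e-07, limma).

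Most of that change came from 5 exon CpGs at chr12:56591499-56591637 (mm9), 1996 to 2134 bp downstream of the start site. Their mean was 92.2% and 90.2% at Div0 in hosts 196 and 197, 81.0% and 76.5% at Div1, and 62.0% in both hosts at Div3. It went on to 34.8% in both hosts at Div5, 22.4% and 23.2% at Div8neg, and 4.97% and 3.75% at Div8pos. No 2 fractions overlapped, and the loss was spread over the divisions: 14.3% of the total difference between Div0 and Div8pos was present at Div1, 33.6% at Div3, 65.0% at Div5 and 78.8% at Div8neg.

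All 5 CpGs of this Nfkbia exon were called lower in Div8pos, in Div8neg and in Div5 against Div0. The deepest single difference among the 399 CpGs was in it, at chr12:56591618, with 100% and 90.1% at Div0 against 0% and 1.77% at Div8pos (adjusted p = 3.93e-08, quasi-binomial test). Behind those 4 values stood 26, 71, 69 and 113 reads. The same CpG was already lower at Div3, with 50.6% and 56.8% (adjusted p = 0.0288). The CpG nearest to the start site, at chr12:56591637, was at 78.9% ± 1.57 at Div0, 51.6% ± 8.95 at Div1 and 24.6% ± 7.97 at Div3, but its difference at Div3 of -54.3 points did not pass (adjusted p = 0.0904).

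**Figure D2:**
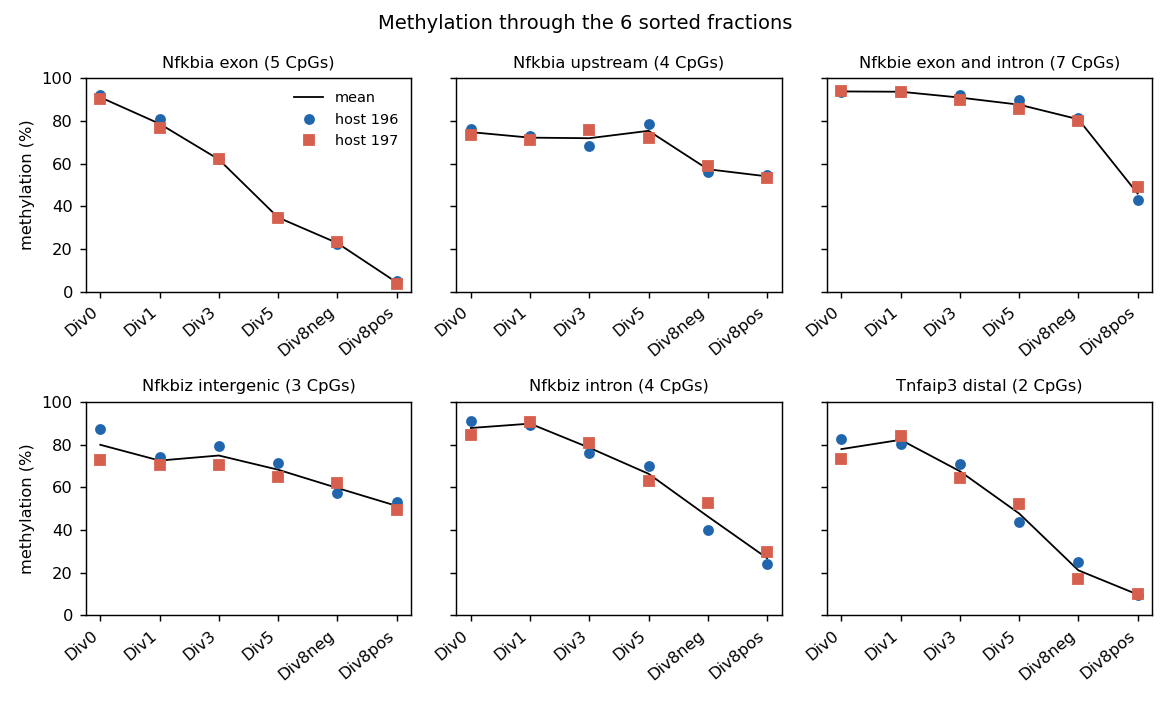
Mean methylation in percent (vertical axis) of 6 groups of neighbouring CpGs in the 6 sorted fractions (horizontal axis), with circles for host 196, squares for host 197 and a line through the mean of both. The Nfkbia exon CpGs go from 91.2% to 4.36% in steps at every fraction, whereas the Nfkbie CpGs are still at 80.8% at Div8neg and at 46.0% at Div8pos.

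A second stretch of Nfkbia, 693 to 818 bp upstream of its start site (chr12:56594328-56594453), held 4 CpGs of which 3 were lower in Div8pos. Its mean was 76.3% and 73.3% at Div0, 73.1% and 71.3% at Div1, 68.1% and 75.8% at Div3, 78.7% and 72.2% at Div5, 56.1% and 58.7% at Div8neg, and 54.8% and 53.3% at Div8pos. Here the first 4 fractions overlapped, and both division 8 fractions lay below them. The remaining lower CpGs of Nfkbia were intergenic, at 25820 bp and 32306 bp downstream.

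Nfkbie encodes IkB epsilon, an inhibitor that holds Rel- and RelA-containing dimers. Its mean over 14 CpGs was 63.4% and 61.0% at Div0, 64.2% and 62.0% at Div1, 60.8% and 59.5% at Div3, 58.9% and 55.4% at Div5, 52.6% and 53.5% at Div8neg, and 34.3% and 38.0% at Div8pos. Div8pos stood apart from all other fractions, 26.1 points below Div0 by the means of 36.1% and 62.2% (SE 1.56, adjusted p = 2.14e-06, limma). This was the largest gene-level difference of the 9.

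The change was carried by 7 CpGs at chr17:45697295-45697542 (mm9), across an intron and an exon of Nfkbie. The nearest start site, 3366 to 3613 bp away, is that of the neighbouring gene Slc35b2, a transporter gene, so the deposited distance does not refer to Nfkbie. Their mean was 93.7% and 94.1% at Div0, 93.7% and 93.8% at Div1, 92.2% and 89.8% at Div3, 89.9% and 85.5% at Div5, 81.7% and 80.0% at Div8neg, and 43.1% and 48.9% at Div8pos. All 7 were called lower in Div8pos against Div0, with adjusted p from 6.99e-05 to 0.000621 (quasi-binomial test). Only 27.3% of the total difference was present at Div8neg, where 1 of the 7 was called, and 0 were called at Div5 or before.

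Nfkbiz encodes IkB zeta, a nuclear member of the IkB family that acts on a subset of NF-kB targets. Its mean over 35 CpGs was 91.6% and 91.5% at Div0, 92.5% and 91.0% at Div1, 90.1% and 90.0% at Div3, 87.2% and 86.6% at Div5, 76.9% and 80.6% at Div8neg, and 72.6% and 73.2% at Div8pos. The first 2 fractions overlapped and the later ones were in order in both hosts. Div8pos differed from Div0 by -18.6 points (SE 1.06, adjusted p = 1.91e-06, limma).

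The largest change in Nfkbiz was in 4 intron CpGs at chr16:55837871-55837981, 772 to 882 bp downstream of a start site. Their mean was 90.9% and 84.8% at Div0, 89.1% and 90.8% at Div1, 76.2% and 81.0% at Div3, 69.9% and 62.9% at Div5, 40.1% and 52.6% at Div8neg, and 24.0% and 29.6% at Div8pos. All 4 were lower in Div8pos and 2 of the 4 also in Div8neg, the fraction in which the hosts lay farthest apart (SD 8.86). The deepest of them, at chr16:55837921, reached 0% and 7.41% at Div8pos on 17 and 54 reads.

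A run of 3 intergenic CpGs with the symbol Nfkbiz, 42074 to 42264 bp downstream (chr16:55776363-55776553), went from 87.3% and 72.7% at Div0 to 53.2% and 49.5% at Div8pos. The hosts differed more at Div0 (SD 10.3) than in any other fraction of that run, and the 2 fractions did not overlap. The other 3 lower Nfkbiz CpGs lay 27969, 27984 and 144189 bp downstream.

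Tnfaip3 encodes a ubiquitin-editing enzyme that shuts off signalling upstream of the IkB kinases. Its mean over 35 CpGs was 44.7% and 45.0% at Div0, 46.8% and 45.5% at Div1, 44.4% and 43.9% at Div3, 43.1% and 41.8% at Div5, 38.1% and 38.5% at Div8neg, and 33.8% and 34.5% at Div8pos. Both division 8 fractions lay below the rest, and Div8pos differed from Div0 by -10.7 points (SE 0.683, adjusted p = 2.56e-06, limma). The difference was -7.08 points over the 31 CpGs within 50 kb of a start site and -3.28 over the 20 within 5 kb, both under the size limit, so the call rests on distant CpGs.

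Those distant CpGs were intergenic. A pair at chr10:18669570 and chr10:18669583, 62198 and 62185 bp downstream, averaged 82.7% and 73.2% at Div0, 80.5% and 84.2% at Div1, 70.8% and 64.4% at Div3, 43.5% and 52.0% at Div5, 25.2% and 17.0% at Div8neg, and 9.55% and 9.96% at Div8pos. Both CpGs of the pair were called lower in Div8neg and in Div8pos, and chr10:18669583 in Div5 as well (adjusted p = 0.00579, quasi-binomial test). A single CpG at chr10:18711105, 20663 bp downstream, took a different course, with 94.4% and 89.6% at Div0, 81.2% and 66.7% at Div5, 66.7% and 69.6% at Div8neg and 5.26% and 12.1% at Div8pos. The remaining 3 lower Tnfaip3 CpGs were 1 in the 3′ UTR (95.5% ± 6.43 to 67.3% ± 18.0) and 2 that lay 3156 and 3186 bp upstream.

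**Figure D3:**
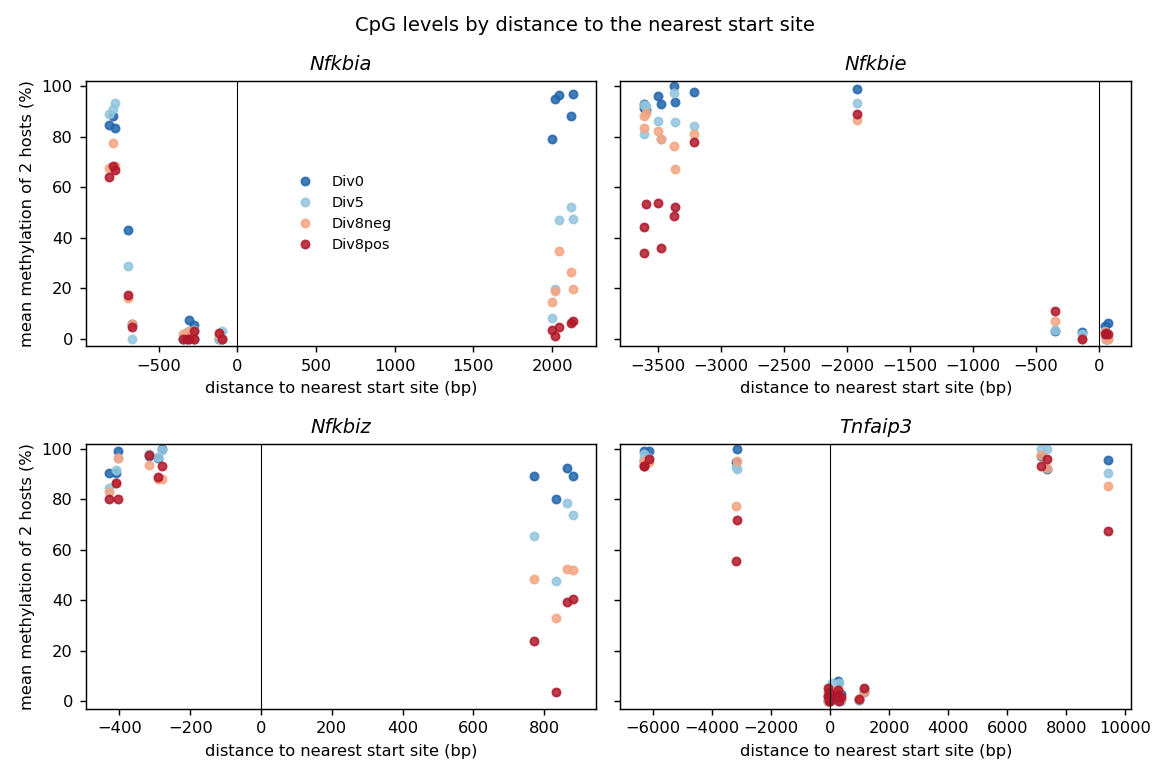
Methylation in percent (mean of 2 hosts, vertical axis) of single CpGs of the 4 inhibitor genes by distance to the nearest start site in bp (horizontal axis, upstream negative), coloured by fraction. CpGs at the start sites of Nfkbia, Nfkbie and Tnfaip3 stay near 0 in the 4 fractions shown, and the separation of colours lies to the side of them. In the Nfkbie panel the distant CpGs are measured from the start site of Slc35b2.

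Cells that had divided at least 8 times without CD138 had 11 of the 399 CpGs lower than undivided cells and 0 higher, where 0.278% of all CpGs were lower and 0.00881% higher. Nfkbia held 5 of the 11, Nfkbiz 2, Tnfaip3 2, Nfkb1 1 and Nfkbie 1, and all 11 were also among the 45. At an unadjusted p under 0.05, 3 of the 399 were higher by the same test, and limma on percentages called 0 higher. At gene level 2 of the 9 were lower and 0 higher, against 1.34% of all genes lower and 0.0119% higher: Nfkbiz by 12.8 points (SE 1.06, adjusted p = 0.000226, limma) and Nfkbia by 12.7 (SE 0.605, adjusted p = 4.09e-05, limma). With host as a block, or with the dispersion of each CpG alone, 0 of the 11 passed. The CpG count was 6 without the Div0 sample of host 196, 2 without that of host 197, and 5 and 2 without the Div8neg samples of hosts 196 and 197.

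CD138+ cells had 6 of the 399 CpGs lower than CD138- cells of the same division class and 0 higher, where 0.141% of all CpGs were lower and 0.000395% higher. With host as a block, or with the dispersion of each CpG alone, the count was 0. The 6 were 3 Nfkbie CpGs, 2 CpGs of the Nfkbia exon and the Tnfaip3 CpG at chr10:18711105. The 3 Nfkbie CpGs (chr17:45697295-45697313) were at 88.5% and 85.5% in Div8neg and at 42.4% and 45.2% in Div8pos, a difference of -43.1 points with no overlap. The Tnfaip3 CpG differed by -59.4 points (adjusted p = 0.00681, quasi-binomial test). Nfkbie was the 1 gene of the 9 lower at gene level, by 16.9 points (SE 1.56, adjusted p = 0.000167, limma), and 0 of the 9 were higher, against 1.94% of all genes lower and 0.00595% higher. Without any 1 of the 4 division 8 samples the CpG count was 0, while the gene-level count stayed at 1. At an unadjusted p under 0.05 1 of the 399 CpGs was higher, and limma on percentages called 0 higher.

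In cells of division 5, 6 of the 399 CpGs were lower than in undivided cells and 0 higher, where 0.0584% of all CpGs were lower and 0.000395% higher. They were the 5 Nfkbia exon CpGs and the Tnfaip3 CpG at chr10:18669583. At division 3 it was 1, in the Nfkbia exon, where 0.00618% of all CpGs were lower, and 0 were higher where 0.000263% of all were. With host as a block, or with the dispersion of each CpG alone, both counts were 0. At division 1 the quasi-binomial test called 0 of the 399 and 0% of all CpGs in either direction, with 15 members lower and 14 higher at an unadjusted p under 0.05, and limma called 0. For division 5 and division 3, 6 and 11 of the 399 were higher at an unadjusted p under 0.05, and limma on percentages called 0 higher. Without the Div0 sample of host 196 the division 5 count was 2, without that of host 197 0, and without the Div5 samples of hosts 196 and 197 3 and 0; the division 3 count was 0 without any 1 of its 4 samples.

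**Figure D4:**
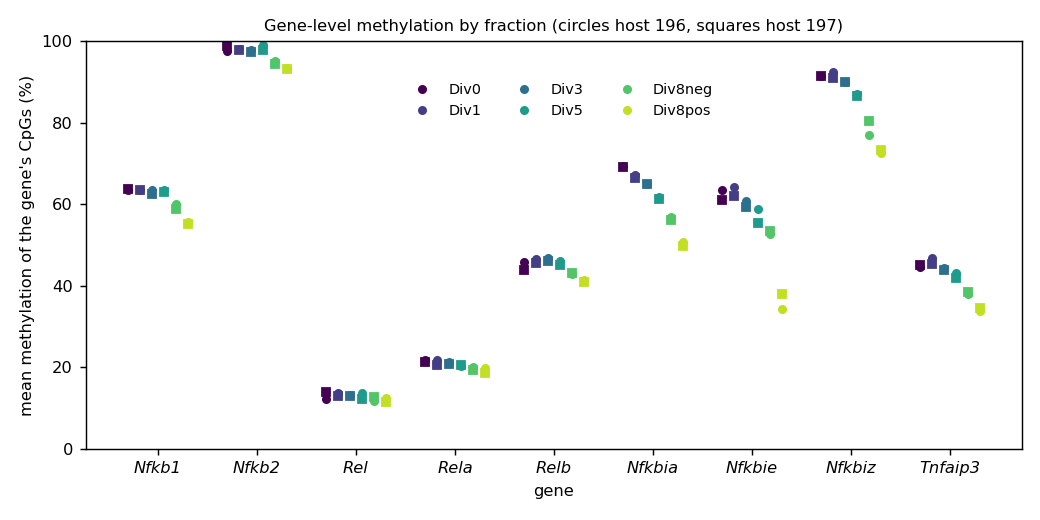
Mean methylation in percent (vertical axis) over all CpGs of each gene, with 1 circle (host 196) and 1 square (host 197) for each of the 6 fractions, coloured from Div0 (dark) to Div8pos (light). Nfkbia steps down through every fraction, Nfkbie drops from 53.1% at Div8neg to 36.1% at Div8pos, and Rel and Rela stay within 2.29 points of their Div0 mean at Div8pos.

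At gene level limma called 0 of the 9 genes at division 5, 3 or 1, where 0.101%, 0% and 0% of all genes were lower, with 4, 1 and 1 of the 9 at an unadjusted p under 0.05. Nfkbia had the largest gene-level difference at division 5, -7.66 points (SE 0.605, adjusted p = 0.00135, limma), which was -17.0 over its 17 CpGs within 5 kb of the start site. Whether the inhibitor genes differ from each other in the division at which they lose methylation was not tested.

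A second deposited table added 421 CpGs of the 9 genes that had too few reads for the first one in at least 1 sample. Pooled over the hosts, 84 of them were at least 20 points lower in Div8pos than in Div0 and 1 was at least 20 points higher, with no test. That is 20.0% lower and 0.238% higher, beside 15.1% and 0.451% of all 879250 CpGs found only in that table. Among CpGs at 20% or more in Div0, 35.1% of 239 members were lower by this limit, beside 20.9% of all such CpGs. It held 8 CpGs within 1 kb of the Nfkb2 start sites, which averaged 3.76% at Div0 and 2.41% at Div8pos and were at most 18.5% in any fraction. In Tnfaip3 a CpG at chr10:18669719, beside the distal pair, was at 96.5% of 57 reads at Div0, 78.2% of 55 at Div5, 31.6% of 38 at Div8neg and 17.1% of 76 at Div8pos, and one at chr10:18711084, beside the CpG at 20663 bp, was at 45.0% of 20 reads at Div8neg and 0% of 55 at Div8pos. The single Rel CpG at least 50 points lower was intergenic, 39356 bp upstream, with 100% of 13 reads at Div0 and 50.0% of 10 at Div8pos.

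Another 4 lists of pathway genes gave the surroundings of these 9 at gene level in Div8pos against Div0, where 16.0% of all genes were lower and the median over all genes was -5.80 points. Of the IkB kinases and adaptors 2 of 15 measured genes were lower and 0 higher (median -5.90): Map3k8, a kinase released from the Nfkb1 precursor, fell by 21.1 points and Ikbke, an IkB kinase-related kinase, by 18.0. Of the other IkB proteins and inhibitors 2 of 14 were lower (median -6.13), Tank by 11.9 points and Nfkbil1 by 10.5. Of the receptors and proximal signalling genes 6 of 26 were lower (median -6.75), led by Tnfrsf13c, the BAFF receptor, which fell by 35.6 points from 76.0% to 40.4%. It was followed by Irak2 (-15.7 points), Ltbr (-14.7), Ly86 (-14.4) and Prkcb (-11.1). Of the NF-kB target genes 6 of 21 were lower (median -5.85), led by the costimulatory ligand Cd86, which fell by 28.1 points, and the chemokine gene Ccl22, by 22.9, with Ebi3 (-15.6), Cd83 (-14.6) and Cd80 (-11.5) after them. No gene of the 4 lists was higher.

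By Euclidean distance over the 12 gene-level percentages, the genes nearest to Nfkbie among 16816 were Psmb9 (9.06 points), 0610040B10Rik (10.6), Crybb1 (11.3), Xrcc1 (11.8) and Cxcr5 (12.2). Psmb9, an immunoproteasome subunit gene, went from 64.5% at Div0 to 49.9% at Div8neg and 36.0% at Div8pos.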

How the data were processed

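Reduced representation bisulfite libraries (MspI and TaqI digests) of 12 samples were analysed. Per the submitters' processing notes, reads were mapped to mm9 with Bismark and Bowtie2, with the versions not given in the sources used here. Values in the deposited table are methylated and unmethylated read counts, and the methylation fraction computed by the authors from these counts, at 760348 CpGs with at least 10 reads in every sample, together with annotation and distance to a start site. The second deposited table holds counts and fractions with a lower depth limit and was used for description only. Of the marker genes, 1 is not reported here. Members and lists were chosen with earlier results of these data known.

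Counts were tested per CpG with a quasi-binomial logistic model of fraction over all 12 samples, with the dispersion moderated across CpGs by limma 3.58.1 in R 4.3.3 (prior 12.9 degrees of freedom, dispersion not below 1). p-values were adjusted by Benjamini-Hochberg over all CpGs, with the 20-point limit. Gene means of percentages (at least 5 CpGs) were tested with limma, with the 10-point limit. Runs are at least 3 called CpGs no more than 500 bp apart. Of the CpGs, 65092 have no gene symbol. All 9 genes, their runs, their deepest called CpGs, the 5 genes nearest to Nfkbie and at most 5 called genes per list were named by rule, and CpGs of the second table after their values were seen. Hosts pair the fractions because the labels give the same host animal. The difference between hosts, however, correlated across CpGs by a median of only 0.00240 (-0.00283 to 0.00642) over 15 pairs of fractions. The scripts were tested on simulated data. Alternatives were a 20-read minimum, host as a block (in 3 versions, 2 of them added after the first was seen), limma on percentages, other dispersions, a 10-point limit, distance limits, summed reads and leaving out each sample. Nothing in the labels says that the 2 hosts received cells of separate donors, so the spread between samples is that between 2 transfers. The p-values per CpG rest on that spread only in part. Their dispersion was drawn towards a value shared by all CpGs (0.921) and not let below 1, the level of read counting error alone.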

Additional observations from a re-analysis of the deposited data

Results flagged for a closer look

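Near 3 of the runs described above, the second table held further CpGs that no comparison used, here given with no test. Beside the Nfkbia exon, 2 intron CpGs (chr12:56591986 and chr12:56592033) averaged 83.5% in Div0 cells when pooled over the hosts. They were at 70.7% in Div1, 42.7% in Div3, 45.6% in Div5, 22.8% in Div8neg and 13.3% in Div8pos, on at least 23 pooled reads. Beside the Nfkbiz intron run, 1 CpG (chr16:55838028) went from 86.7% at Div0 to 46.8% at Div8pos, on at least 30 pooled reads. Beside the upstream Nfkbia run the table held 9 CpGs (chr12:56594009-56594694), of which 8 were under 20% at Div0. Their mean was 15.1% at Div0 and 7.34% at Div8pos, 7 of the 9 were lower, and 1 of the 9 was lower by at least 20 points.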

How the results depend on the processing

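All alternatives kept 0 higher CpGs and 0 higher genes among the 9 in the 6 comparisons. In Div8pos against Div0, 45 lower CpGs became 19 with at least 20 reads in every sample, 68 with a 10-point limit and 13 to 40 leaving out 1 sample. In Div8neg against Div0, 11 became 7 with 20 reads, 17 with the dispersion counted only over libraries with a fitted level between 0 and 1 (an alternative added after seeing the data), and 2 to 6 leaving out 1 sample. In Div8pos against Div8neg, 6 became 10 with that dispersion, 10 with limma on percentages and 0 leaving out 1 sample. Division 5 gave 0 to 3 leaving out 1 sample. At division 3, 1 became 2 with that dispersion, and 0 with limma or leaving out 1 sample. With the dispersion of each CpG alone the count was 0 in all comparisons. By that quasi-binomial test 97, 62, 23, 22, 14 and 7 members were lower at an unadjusted p under 0.05. Of all 760348 CpGs, 148668, 50622, 45384, 18618, 15249 and 12342 were under that p in either direction. With host as a block and 5 residual degrees of freedom at every CpG, 45 became 8 and the others 0, and the prior had 1.25 degrees of freedom. After this result was seen, the block was refitted with 2 other counts of the degrees of freedom. Counted over fractions with a pooled level between 0 and 1, the block gave 12 for Div8pos against Div0 and 0 for the others. Counted over libraries with a fitted level between 0 and 1, it gave 47, 16, 10, 6 and 2 for Div8pos and Div8neg against Div0, Div8pos against Div8neg, and divisions 5 and 3. The block thus changes the calls with how its degrees of freedom are counted, and at gene level it changed no count. At gene level, 2 lower genes in Div8neg became 4 with summed reads (Nfkbie and Tnfaip3 added), and 0 in division 5 became 1, Nfkbia, within 5 kb and with 20 reads. Gene-level counts leaving out 1 sample were 4, 2 to 3, 1 and 0 for Div8pos, Div8neg, Div8pos against Div8neg and division 5. The cause of these shifts was not tested. At the lowest depth of 10 reads, 1 read moves a level by 10 points, and each fraction has 2 samples.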
